A study of Mus musculus with 8 samples.

Results

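The 10 genes described here, Slc2a1, Hk2, Aldoa, Tpi1, Gapdh, Pgk1, Eno1, Pkm, Ldha and Hif1a, carry glucose to lactate or, for Hif1a, drive the transcription of genes that do so. They were taken by gene symbol from the 32285 genes counted in scRNAseq of mouse liver immune cells after a dose of β-glucan (BG). The symbol Aldoa named 2 genes in the annotation, of which ENSMUSG00000030695 had 31584 UMIs (unique molecular identifiers, 1 for each captured RNA molecule) in the kept cells and was used. The second, ENSMUSG00000114515, had 0 UMIs.

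The BG group was 4 female C57BL/6J mice of 9 weeks (replicates 5 to 8) that received 1.2 mg of BG intravenously on day 0, with livers taken on day 2. BG here is odetiglucan, also called Imprime PGG, a soluble yeast β-1,3/1,6 glucan that binds the receptor Dectin-1. The Control group was 4 untreated mice of the same sex, strain and age (replicates 1 to 4). Control mice therefore had no vehicle injection, and each library was 1 mouse. Cells were CD45+ liver cells together with buffy-coat cells from the column flow-through, added to recover Kupffer cells (KCs), so shares of cell types are those of this mixture and not of the liver.

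Glycolysis splits glucose into pyruvate and yields ATP without oxygen, and its last member here, lactate dehydrogenase, turns pyruvate into lactate. The transcription factor HIF-1, whose oxygen-sensitive subunit is encoded by Hif1a, raises the transcription of most of these enzymes when that subunit is stable. HIF-1α is controlled to a large extent at the protein level, which RNA counts do not measure. In trained immunity, innate cells that have met β-glucan respond more strongly to a later stimulus. In human monocytes and in mice this has been tied to signalling through Dectin-1, Akt, mTOR and HIF-1α and to a shift toward glycolysis. Dividing lymphocytes also run glycolysis at a high rate. The question was in which liver cells these genes were expressed and whether their RNA differed 2 days after BG.

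In coordinates of GRCm38 (GENCODE vM21 gene models), all members are protein-coding genes. Slc2a1 lies at chr4:119108711-119137983 and Eno1 at chr4:150236721-150248879, both on the forward strand. Hk2 (chr6:82725025-82774454), Tpi1 (chr6:124810586-124814296) and Gapdh (chr6:125161715-125166467) are on the reverse strand. Ldha lies at chr7:46841475-46855627 (forward), Aldoa at chr7:126795234-126800751 (reverse) and Pkm at chr9:59656368-59679375 (forward). Hif1a lies at chr12:73901375-73947530 and Pgk1 at chrX:106187100-106203699, both on the forward strand. UMIs from exons and introns were counted together, so unspliced RNA is part of each value.

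Promoters are shown for the members called higher in cycling than in non-cycling T and NK cells, a result given below. They were chosen with that result known, and the other promoters are not shown. Each is the 250 bases upstream of the RefSeq start in GRCm38.p6. Where RefSeq gave several starts, the most upstream one is shown. Capitals mark ACGTG or GCGTG on either strand, the core letters that HIF-1 binds; the same ACGTG letters lie inside the E-box CACGTG, which counts once on each strand.
Gapdh: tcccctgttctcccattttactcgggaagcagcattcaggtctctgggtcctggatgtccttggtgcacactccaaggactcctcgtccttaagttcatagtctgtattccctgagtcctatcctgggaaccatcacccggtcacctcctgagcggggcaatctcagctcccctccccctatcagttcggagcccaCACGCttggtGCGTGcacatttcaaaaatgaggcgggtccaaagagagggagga
Pgk1: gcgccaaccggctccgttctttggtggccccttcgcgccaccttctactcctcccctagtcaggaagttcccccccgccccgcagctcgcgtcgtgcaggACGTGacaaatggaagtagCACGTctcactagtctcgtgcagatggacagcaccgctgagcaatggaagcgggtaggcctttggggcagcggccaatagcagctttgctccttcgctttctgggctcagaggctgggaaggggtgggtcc
Pkm: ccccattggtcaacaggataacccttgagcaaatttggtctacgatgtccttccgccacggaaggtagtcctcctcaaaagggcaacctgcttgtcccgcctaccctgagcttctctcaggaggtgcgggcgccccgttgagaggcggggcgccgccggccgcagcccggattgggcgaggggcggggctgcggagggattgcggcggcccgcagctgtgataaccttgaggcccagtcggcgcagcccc
Tpi1: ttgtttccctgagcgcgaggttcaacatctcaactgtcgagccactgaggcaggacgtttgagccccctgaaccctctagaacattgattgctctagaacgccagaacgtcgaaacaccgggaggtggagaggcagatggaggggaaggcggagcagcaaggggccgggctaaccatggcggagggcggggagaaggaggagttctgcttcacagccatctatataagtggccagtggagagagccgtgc
Ldha: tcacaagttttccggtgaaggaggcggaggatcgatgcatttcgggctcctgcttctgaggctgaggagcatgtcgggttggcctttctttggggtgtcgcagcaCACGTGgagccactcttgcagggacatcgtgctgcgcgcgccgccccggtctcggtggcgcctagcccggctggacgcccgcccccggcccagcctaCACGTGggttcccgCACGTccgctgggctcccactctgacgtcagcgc
The windows are chr6:125165774-125166023 (reverse strand) for Gapdh, chrX:106186850-106187099 (forward) for Pgk1 and chr9:59656326-59656575 (forward) for Pkm. They are chr6:124814159-124814408 (reverse) for Tpi1 and chr7:46845554-46845803 (forward) for Ldha. Ldha held 5 matches, Gapdh 2, Pgk1 2 and the Pkm and Tpi1 windows 0, and a second Pkm window at chr9:59656977-59657226 held 1. Of the 10 members, 9 had a match in at least 1 of their promoters, against 41.5% of 27025 genes, and 7 had ACGTG, against 18.5% of genes. A match is a run of letters and was not tested as a binding site.

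The kept cells, with 200 to 2500 genes and at most 30% mitochondrial UMIs, numbered 20624 from BG mice (4330 to 5780 a mouse) and 27841 from Control mice (6222 to 7790). Their UMIs summed to 12499993 to 19056897 a BG mouse and 17546204 to 21529646 a Control mouse, and the median per cell was 2513 to 3589.5 in BG and 2321.5 to 2928 in Control libraries. BG replicate 5 stood apart, with 18247 of 27873 barcodes under 200 genes. Pairs of libraries shared 0.0875% to 0.418% of the barcodes of the smaller one. Classes were gated on marker UMIs, none of them a member, and no annotation of the cells was used. KCs numbered 402 (216 BG and 186 Control), led by Cd5l, C1qa, Clec4f, C1qc, C1qb and Vsig4. Monocytes and monocyte-derived macrophages, taken by the same gate and called BMDMs here, numbered 381 (188 BG and 193 Control), led by Lyz2, Chil3, F13a1 and Fn1. The gate did not separate monocytes from macrophages, and the leading genes are also those of monocytes. T cells numbered 20492, of which 12037 were NKT-like, 2493 CD8, 962 CD4 and 919 γδ T cells, beside 1996 NK cells and ILC1. The NKT-like gate asked a T cell for 3 of Zbtb16, Klrb1c, Trav11, Il2rb, Cxcr6, Fasl and Nkg7, which other cytotoxic T cells can also carry. It was applied before the CD4 gate, so Cd4+ T cells with 3 of these markers were counted as NKT-like. The CD4 class thus held only Cd4+ cells outside the NKT-like gate, with Tcf7 and Lef1 among its leading genes. Of the 402 cells kept as KCs, 14.7% had no more markers than the gate asked for. A further 676 cells met the KC gate but also that of another lineage, and were left out of every KC result. No class share differed between groups past adjustment. The smallest adjusted p was shared by B cells, at 11.1% ± 2.54 of BG and 21.2% ± 3.84 of Control cells, and by cycling T and NK cells, at 2.26% ± 1.07 of BG and 0.451% ± 0.240 of Control cells (SD, n = 4 each, exact permutation test, two-sided p = 0.0286, adjusted p = 0.371). That p is the smallest that 4 against 4 mice allow. Adjusted over all classes, it could pass only if many classes reached it, so the outcome does not show that shares were alike. B cells spanned 7.52% to 13.4% of BG and 16.6% to 25.4% of Control cells, with no overlap.

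Levels are given as CPM, UMIs of the gene scaled to a fixed total of the class's UMIs (counts per 1e6) after TMM scaling, with 1 value per mouse. Because these are 3' tags, levels are compared between classes for 1 gene at a time. Gapdh, the enzyme that oxidises glyceraldehyde 3-phosphate, was at a like level in BMDMs and neutrophils: BMDMs were the higher in 3 of 8 mice, and neutrophils came first with mitochondrial genes left out. Its mean was 578 ± 55 CPM in BMDMs (SD over 8 mice), 548 ± 114 in neutrophils, 525 ± 112 in NKT-like cells and 327 ± 58 in KCs, and was lowest in endothelial cells at 202 ± 27. Hexokinase 2 (Hk2), which traps glucose in the cell by phosphorylation, was highest in 4 myeloid classes. Hk2 averaged 128.5 ± 33.1 CPM in BMDMs, 77.6 ± 26.4 in cDC1, 72.4 ± 26.7 in KCs and 41.3 ± 11.6 in neutrophils, against 10.3 ± 2.6 in pDCs and 2.41 ± 0.38 in NKT-like cells. Neutrophils exceeded pDCs, the next class, by 2.49 on the log2 scale in 8 of 8 mice (exact permutation test over mice, p = 0.0078, the smallest that 8 mice allow; adjusted p = 0.0938).

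**Figure D1:**
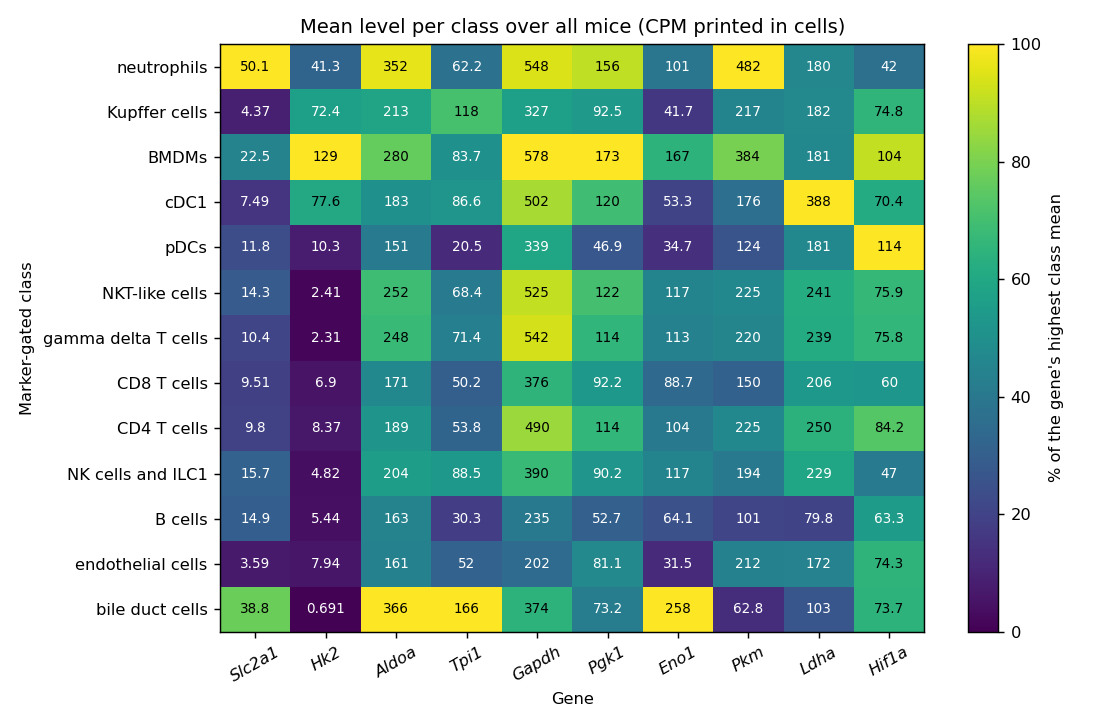
Mean level of each glycolysis gene (columns, in pathway order) in each cell class (rows) over the 8 mice, printed in CPM; colour gives the mean as a percent of that gene's highest class. Hk2 was highest in BMDMs (128.5 CPM) and at most 8.37 CPM in every T, NK and B cell class, while Gapdh ran from 202 CPM in endothelial cells to 578 CPM in BMDMs.

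The other members had different orders. Pyruvate kinase (Pkm, counted over all its splice forms) was highest in neutrophils at 482 ± 110 CPM, followed by BMDMs at 384 ± 34, with KCs at 217 ± 68 and bile duct cells lowest at 62.8 ± 20.1. Ldha was highest in cDC1 at 388 ± 37 CPM and lowest in B cells at 79.9 ± 10.8, and KCs (182 CPM) and BMDMs (181 CPM) stood side by side. The glucose transporter Slc2a1 was highest in neutrophils at 50.1 ± 30.2 CPM and averaged 4.37 CPM in KCs, from 0 to 3 UMIs a mouse. Enolase 1 (Eno1) and aldolase A (Aldoa) were highest in bile duct cells at 258 ± 66 and 366 ± 59 CPM, and KCs had 41.7 CPM of Eno1 against 167 CPM in BMDMs. Triose phosphate isomerase (Tpi1) was also highest in bile duct cells (166 ± 42 CPM), with KCs next at 118 ± 36, and phosphoglycerate kinase (Pgk1) was highest in BMDMs at 173 ± 24 CPM. Hif1a was highest in pDCs at 114 ± 9 CPM, with BMDMs at 104 ± 28 and KCs at 74.8 ± 23.5, and lowest in this order in NK cells and ILC1 at 47.0 ± 7.2. Over the 120 pairs of neighbouring classes in these orders, none passed adjustment, and 10 reached the smallest exact p (0.0078, adjusted p = 0.0938). The order was taken from log2 CPM with 1 count added, which lifts classes with few UMIs.

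Levels were set against those in barcodes with under 200 genes. In Control replicate 1 these were 2771 barcodes with 242693 nuclear-genome UMIs together. Whether they hold free RNA or broken cells was not tested. In KCs, Hk2 was at 88.5 CPM of nuclear-genome UMIs against 10.8 CPM in the barcodes of the same libraries with under 200 genes, and was above its own library in 8 of 8 mice. Hif1a (91.3 against 45.4 CPM) was also above in 8 of 8, and Pkm (266 against 172 CPM) in 7. Gapdh (400 against 372 CPM), Ldha (223 against 187 CPM) and Pgk1 (114 against 108 CPM) were above in 5, 5 and 4 of 8 mice, and Eno1 (50.9 against 61.2 CPM) in 2. The data thus do not tell these levels in KCs from those of such barcodes, and the part of free RNA in them was not tested. In NKT-like cells, Gapdh (622 against 372 CPM), Pkm, Ldha, Eno1, Aldoa and Hif1a were above in 8 of 8 mice and Pgk1 (144 against 108 CPM) in 6. Tpi1 (81.2 against 89.2 CPM) was above in 5 and Hk2 (2.87 against 10.8 CPM) in 2 of 8.

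To address whether BG changed these genes in KCs and BMDMs, UMIs were summed per mouse and class. In KCs, 6 of the 10 members had enough counts to be tested with edgeR and none passed adjustment, against 1.13% of 1775 genes called higher and 0.732% called lower. All 6 log2 fold changes were above 0, with a median of 0.42 beside −0.00 over all genes tested. The count filter can keep a gene through the mice of a single group, so the direction of these 6 does not stand for all 10 members. The members with too few counts mostly had lower means in BG. Hif1a had 57.1 CPM in BG and 92.5 CPM in Control KCs, Hk2 62.2 CPM in BG and 82.6 CPM in Control KCs. Eno1 had 36.6 CPM in BG and 46.7 CPM in Control KCs, while Slc2a1 was higher in BG, at 5.47 CPM against 3.27 CPM in Control KCs. At an unadjusted p under 0.05 there were 2 members and 253 genes, and DESeq2 called no member either. KC sums were small, at 56937 to 220714 UMIs a BG mouse and 29666 to 212891 a Control mouse.

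Pkm had 277.9, 326.9, 233.6 and 235.1 CPM in KCs of BG mice, from 38, 19, 52 and 28 UMIs. In KCs of Control mice it had 131, 224.6, 137.9 and 166.8 CPM, from 4, 17, 29 and 20 UMIs. All BG mice were above all Control mice, as for 8.23% of the genes tested in KCs, and the log2 fold change was 0.67 (SE 0.25, edgeR adjusted p = 0.22). Pgk1, which makes the first ATP of the pathway, had 131.6, 103.2, 148.2 and 92.36 CPM in BG KCs and 65.52, 79.28, 95.08 and 25.02 CPM in Control KCs, from 2 to 33 UMIs a mouse. The groups overlapped by 1 Control mouse, and the log2 fold change of 0.83 (SE 0.35, edgeR adjusted p = 0.27) was 1.32 without Control replicate 3 and 0.52 without Control replicate 4. With KCs that also met the T cell gate kept, an alternative chosen after seeing the data, the Pkm log2 fold change was 0.38.

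The other tested members overlapped between groups in KCs. Gapdh had 431.4, 292.5, 341.4 and 277.1 CPM in BG KCs and 393.1, 303.9, 309 and 266.9 CPM in Control KCs (log2 fold change 0.16, edgeR adjusted p = 0.80). Tpi1, Aldoa and Ldha had log2 fold changes of 0.47, 0.38 and 0.28, with edgeR adjusted p of 0.55, 0.52 and 0.67. Hif1a, Hk2, Eno1 and Slc2a1 had too few UMIs to be tested. Hif1a had 51.19, 51.62, 58.39 and 67.17 CPM in BG KCs, against 98.28, 66.07, 114.1 and 91.73 CPM in Control KCs, from 3 to 24 UMIs a mouse. Its 4 BG values lay at the low end, and 1 Control mouse was below the highest of them.

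**Figure D2:**
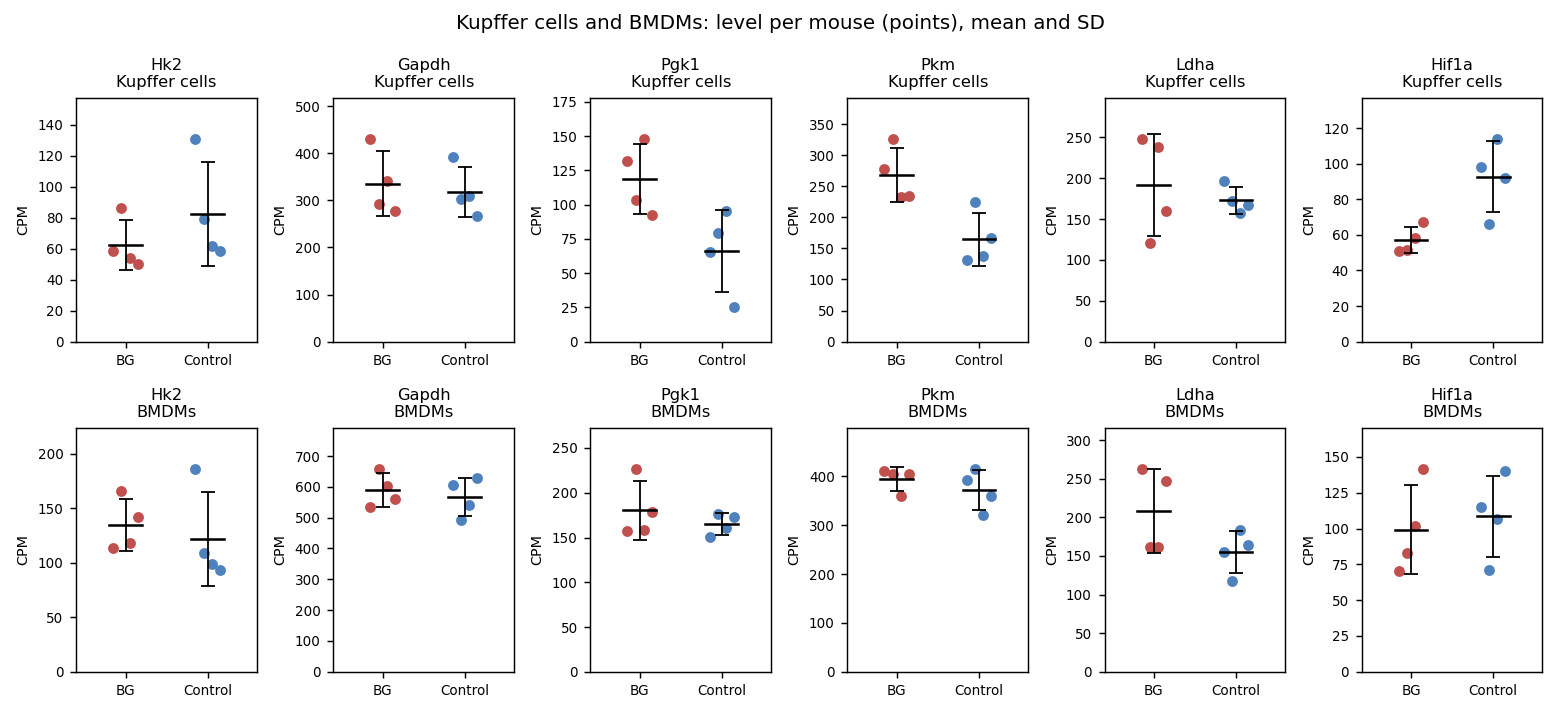
CPM of 6 members in KCs (top) and BMDMs (bottom), 1 point per mouse with the mean and SD, BG left of Control. Pkm in KCs averaged 268.4 CPM in BG and 165.1 CPM in Control mice, while in BMDMs the groups overlapped for each gene drawn.

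In BMDMs, 9 members were tested with edgeR and none passed adjustment, against 2% of 2901 genes called higher and 0.414% called lower. Their median log2 fold change was 0.06 beside −0.01 over all genes, and 0 members and 334 genes had an unadjusted p under 0.05. No member was without overlap between the groups, as 7.41% of genes were. Hk2 had 113.9, 165.8, 118.5 and 141.7 CPM in BG BMDMs and 186.4, 109.1, 99.14 and 93.61 CPM in Control BMDMs (log2 fold change 0.12, edgeR adjusted p = 0.91). Control replicate 1 was the highest of the 8 and the other 3 Control mice the lowest. Ldha had 262.8, 161.4, 161.3 and 246.7 CPM in BG BMDMs and 154.7, 117.5, 183 and 163.8 CPM in Control BMDMs. Its log2 fold change of 0.39 (SE 0.21, edgeR adjusted p = 0.51) was the largest of the 9. Hif1a had 70.08, 82.88, 102.1 and 141.7 CPM in BG BMDMs and 115, 71.35, 106.8 and 140.4 CPM in Control BMDMs, so both groups spanned the same range.

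Other gene groups did differ between the groups in the same KC and BMDM sums. Summed over 8 type I interferon response genes, KCs had 2744 to 2775 CPM in BG and 1151 to 1416 CPM in Control mice, and BMDMs 2303 to 2968 CPM in BG and 987 to 1264 CPM in Control mice. Of these genes 4 of the 7 tested were called higher in KCs and 6 of 7 in BMDMs. Genes of dissociation stress moved the other way. Their sum was 2986 to 4519 CPM in BG and 4753 to 7836 CPM in Control KCs, and Jun, Hspa1a and Hspa1b fell in BG KCs by 0.94, 1.06 and 1.07 on the log2 scale. Their part in the members' values was not tested.

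NKT-like cells, the largest class, held 4 of the 5 glycolysis gene results past the adjusted p alone among the 13 classes. There 4 of 10 members rose at an edgeR adjusted p under 0.05 and 0 fell, against 3.76% of genes higher and 0.901% lower, and with the log2 fold limit of 0.5 the call held for Gapdh alone, against 2.66% and 0.389%. The median log2 fold change of the 10 was 0.22, beside −0.01 over all genes. For 5 members no BG mouse overlapped a Control mouse, against 11.1% of genes.

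Gapdh had 633, 592.6, 719 and 516 CPM in NKT-like cells of BG mice and 434.2, 452.4, 412.4 and 439.4 CPM in those of Control mice. Each BG mouse was above each Control mouse, and the log2 fold change was 0.50 (SE 0.09, edgeR adjusted p = 0.0052). Pgk1 had 137, 136.1, 160.3 and 134.6 CPM in BG and 93.43, 107.9, 105.5 and 98.21 CPM in Control mice, again with no overlap (log2 fold change 0.49, SE 0.08, edgeR adjusted p = 0.0028). Pkm had 265.3, 228, 270.5 and 237.2 CPM in BG and 197.6, 201, 195.1 and 202.1 CPM in Control mice. The Control mice lay close together, and the log2 fold change was 0.33 (SE 0.08, edgeR adjusted p = 0.022). Tpi1 had 79, 70.55, 85.2 and 73.25 CPM in BG and 59.91, 63.08, 55.77 and 60.62 CPM in Control mice (log2 fold change 0.36, SE 0.09, edgeR adjusted p = 0.023). No BG mouse overlapped a Control mouse for either gene. Tpi1, Gapdh and Pgk1 act one after another in the pathway, and Pkm makes its pyruvate.

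Ldha, the step to lactate, had 273, 232.3, 311.4 and 245 CPM in BG and 213.8, 223.4, 216.3 and 211 CPM in Control NKT-like cells. The groups did not overlap, but the log2 fold change of 0.30 (SE 0.09) had an edgeR adjusted p of 0.081. Aldoa had 263.6, 238.9, 257.7 and 245.5 CPM in BG and 285.7, 263.4, 233.7 and 228.4 CPM in Control mice, with a log2 fold change of −0.01. Eno1 (0.14), Hif1a (0.14), Hk2 (−0.11) and Slc2a1 (−0.13) had log2 fold changes near 0 and overlapped between groups. Hif1a had 80.74, 81.77, 72.4 and 83.79 CPM in BG and 73.88, 67.66, 68.63 and 78.01 CPM in Control mice (edgeR adjusted p = 0.38).

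**Figure D3:**
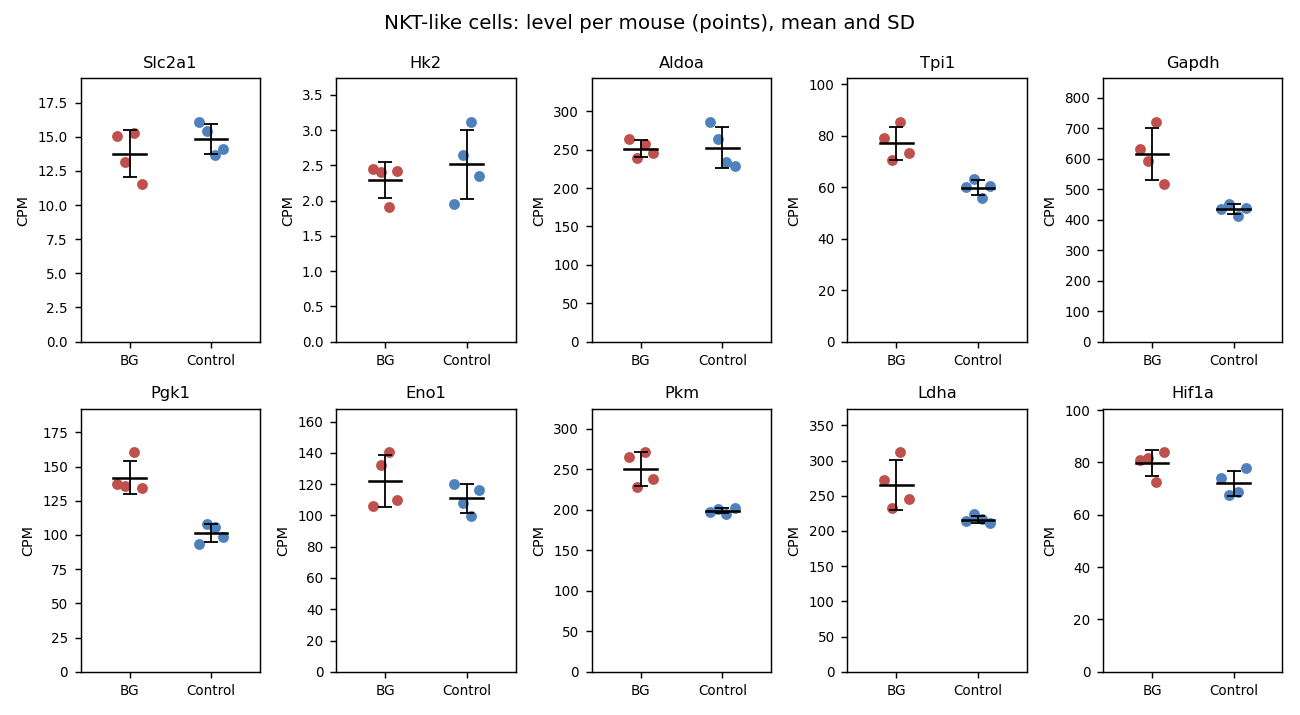
CPM of the 10 members in NKT-like cells, 1 point per mouse with the mean and SD (n = 4 each), BG left of Control. Gapdh averaged 615.2 CPM in BG and 434.6 CPM in Control mice, Pgk1 142 CPM in BG and 101.3 CPM in Control mice and Pkm 250.3 CPM in BG and 199 CPM in Control mice, with no overlap between the groups.

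The adjusted p of Gapdh and Pgk1 in NKT-like cells stayed under 0.05 whichever mouse was left out, at log2 fold changes of 0.42 to 0.58 and 0.43 to 0.53. Gapdh missed the fold limit without BG replicate 7 (0.42), Control replicate 3 (0.48) or BG replicate 5 (0.495). Without Control replicate 1, 3 or 4 or BG replicate 5 or 7, Pkm had an edgeR adjusted p of 0.0552 to 0.0850 and Tpi1 one of 0.0558 to 0.0937, at log2 fold changes of 0.29 to 0.34 and 0.31 to 0.37. Cycling cells, defined by at least 3 of 9 cell cycle markers, made up 1.68%, 5.27% and 7.04% (lowest, median and highest) of BG and 0.103%, 0.988% and 1.68% of Control NKT-like cells (exact permutation test, p = 0.0571, adjusted p = 0.0857). With cells carrying more than 1 such marker left out, the log2 fold changes were 0.44 for Gapdh (edgeR adjusted p = 0.018), 0.42 for Pgk1 (0.0080), 0.28 for Pkm (0.076) and 0.23 for Tpi1 (0.20). Interferon genes summed to 910 to 1080 CPM in BG and 448 to 561 CPM in Control NKT-like cells, and dissociation stress genes to 1652 to 2012 CPM in BG and 2313 to 3256 CPM in Control. The part of these in the members' values was not tested.

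All T cells together, most of them NKT-like and so not an independent set, had Gapdh at 572.4 ± 77.8 CPM in BG and 411.9 ± 17.3 CPM in Control mice (SD, n = 4 each), with Pgk1, Pkm and Tpi1 also past an edgeR adjusted p of 0.05, against 3.3% of genes higher and 0.776% lower. None reached the fold limit, which 2.35% of genes passed upward and 0.309% downward. In γδ T cells Gapdh was called higher, as were 0.767% of genes, and none was called lower, as were 0.161%. It had 763, 582.2, 716.8 and 508.5 CPM in BG and 409.4, 530.3, 416 and 406 CPM in Control mice, and the groups overlapped through Control replicate 2 and BG replicate 8. The log2 fold change was 0.53 (SE 0.13, edgeR adjusted p = 0.035). The adjusted p exceeded 0.05 without Control replicate 1, 3 or 4 or BG replicate 5, 6 or 7 (log2 fold change 0.45 to 0.57, adjusted p 0.0716 to 0.259). It also did so with DESeq2 (0.53, adjusted p = 0.0507), with no upper gene limit (0.36, adjusted p = 0.21), with a 10% mitochondrial limit (0.66, adjusted p = 0.21) and with stricter gates (0.45, adjusted p = 0.18).

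In NK cells and ILC1 no member was called, against 1.32% of genes higher and 0.285% lower. Pgk1 had 99.48, 120.9, 90.95 and 94.95 CPM in BG and 68.12, 89.68, 86.56 and 70.55 CPM in Control NK cells, with no overlap, as for 6.98% of genes (log2 fold change 0.40, edgeR adjusted p = 0.21). Hif1a had 36.35, 38.19, 42.44 and 48.63 CPM in BG and 52.14, 51.25, 50.2 and 56.83 CPM in Control NK cells. There every BG mouse was the lower one, and the log2 fold change was −0.32 (SE 0.19, edgeR adjusted p = 0.49). Gapdh in CD8 T cells had a log2 fold change of 0.31 (edgeR adjusted p = 0.27). Member medians were 0.00 in CD4 T cells outside the NKT-like gate, 0.00 in B cells and −0.06 in pDCs. They were 0.03 in neutrophils, 0.10 in cDC1, 0.15 in endothelial cells and −0.03 in bile duct cells. No member passed adjustment in any of these classes. Log2 fold changes were above 0 for 2 of 3 members tested in neutrophils, 4 of 5 in cDC1 and 3 of 8 in pDCs. Those below 0 included Pkm in neutrophils (−0.47), Aldoa in cDC1 (−0.33), and Eno1 (−0.33) and Tpi1 (−0.31) in pDCs.

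**Figure D4:**
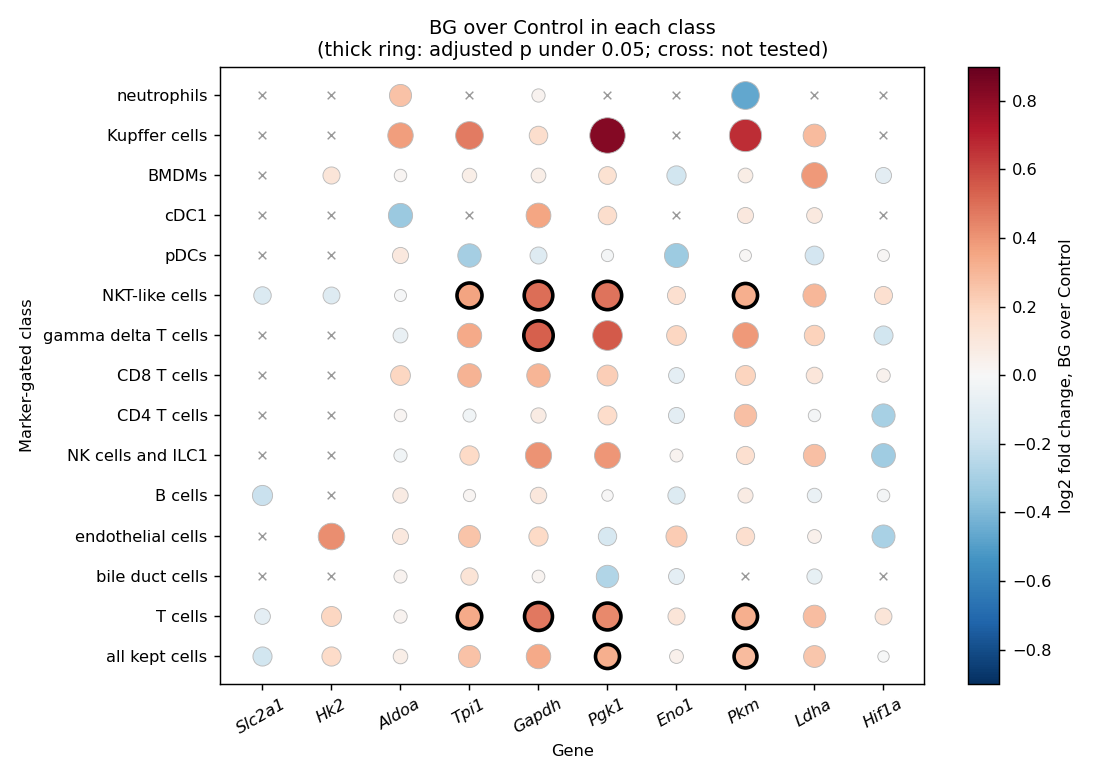
Log2 fold change, BG over Control, of each member (columns) in each class and in the sums of T cells and of all kept cells (rows); colour and dot size give the fold change, a thick ring marks an edgeR adjusted p under 0.05 and a cross a gene with too few counts to test. Rings sit in NKT-like, γδ and T cells and in the sum of all kept cells, with none in KCs or BMDMs.

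Over the 13 classes, 97 tests of a member could be made. Of these 67 log2 fold changes were above 0, 5 were past an edgeR adjusted p of 0.05 upward, against 1.56% of all tests of a gene in these classes, and 0 downward, against 0.337%. Slc2a1 and Hk2 could not be tested in 11 and 10 of 15 class sums, and Hif1a in 4. In the sum of all kept cells Pgk1 had 111.9 ± 3.2 CPM in BG and 89.3 ± 3.6 CPM in Control mice (SD, n = 4 each; log2 fold change 0.33, edgeR adjusted p = 0.022). Pkm had 217.8 CPM in BG and 178.6 CPM in Control mice there (0.29, edgeR adjusted p = 0.046), and 1.24% of genes were higher and 0.465% lower by that rule. Leaving out any 1 mouse other than BG replicate 6 ended both calls, with edgeR adjusted p of 0.0509 to 0.106 for Pgk1 and 0.0917 to 0.164 for Pkm and log2 fold changes of 0.30 to 0.35 for Pgk1 and 0.26 to 0.30 for Pkm. Hif1a was at 73.5 CPM in both groups. In that sum, more cells of a class and more RNA per cell cannot be told apart.

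The BG effect was compared between classes in 1 fit with the mouse as a block. The smallest adjusted p of a member was that of Gapdh between BMDMs and T cells, whose BG effects differed by −0.40 on the log2 scale (SE 0.15, edgeR adjusted p = 0.42), where 0.355% of genes passed. Between KCs and BMDMs, Pkm differed by 0.60 (SE 0.29, edgeR adjusted p = 0.78) and Pgk1 by 0.86 (SE 0.42, edgeR adjusted p = 0.79), where 0.0767% of genes passed. A difference of the BG effect between classes was thus not shown for any member, nor between KCs and T cells, where 0.0773% of genes passed.

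Other genes of the pathway were read from lists of known members. Of 28 further glycolysis genes, isoenzymes and regulators, 20 were tested in NKT-like cells and 0 were called, with a median log2 fold change of −0.06. Over all genes tested, 2.66% were called higher and 0.389% lower in NKT-like cells. The shares were 1.13% and 0.732% in KCs, and 2% and 0.414% in BMDMs. In KCs 2 and in BMDMs 4 of the 28 could be tested, with 0 called. Of 26 genes of the Akt, mTOR and HIF pathway, 25 were tested in NKT-like cells and Myc, a transcription factor of growth, was called higher at 30.6 CPM in BG and 19.4 CPM in Control mice (log2 fold change 0.66, edgeR adjusted p = 0.0020). In KCs 5 and in BMDMs 6 of the 26 were tested, with 0 called and medians of −0.41 and −0.02. Of 16 HIF-1 targets outside glycolysis, 11 were tested in NKT-like cells, with a median log2 fold change of −0.07. P4ha1, a collagen prolyl hydroxylase, was called higher, at 26.1 CPM in BG and 15.9 CPM in Control mice (log2 fold change 0.73, edgeR adjusted p = 0.039). With no limit on the fold, 1 target of this list was lower at an edgeR adjusted p under 0.05.

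Of 7 pentose phosphate genes tested in NKT-like cells, 1 was called higher, against 2.66% of all genes. It was transketolase (Tkt), at 152 CPM in BG and 105 CPM in Control mice (log2 fold change 0.53, edgeR adjusted p = 0.0066). Tkt was also called in NK cells and ILC1, at 145.8 CPM in BG and 94.5 CPM in Control mice (log2 fold change 0.63, edgeR adjusted p = 0.019). It was 1 of 6 genes of that list tested there, against 1.32% of all genes called higher, and the list's median was −0.09. In pDCs Pgam2, a phosphoglycerate mutase known from muscle, was called at 132.3 CPM in BG and 63.1 CPM in Control mice (log2 fold change 1.00, edgeR adjusted p = 0.00072). None of the tested genes of β-glucan receptors and their signalling (Itgam, Itgb2 or Syk, by class) was called in KCs, BMDMs or NKT-like cells. Dectin-1 itself (Clec7a) was not analysed here.

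A second comparison set cycling against non-cycling T and NK cells of the same mouse, since dividing lymphocytes are known for glycolysis. It had 590 cycling cells, 463 from BG and 127 from Control mice, and used 7 mice, since Control replicate 1 had 9 such cells. Of the 10 members 5 were called higher and 1 lower. This fit called 12.8% of 11211 genes higher and 12.2% lower, so calls were common in it.

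Gapdh had 1059, 1063, 1045 and 917.8 CPM in cycling cells of BG replicates 5 to 8 and 977.1, 830 and 948.1 CPM in those of Control replicates 2 to 4. In non-cycling cells of the same mice it had 532.7, 540.4, 619.5 and 427.3 CPM in the BG mice and 415.2, 380.6 and 406.2 CPM in the Control mice. The cycling value was the higher one in 7 of 7 mice, with a log2 fold change of 1.05 (SE 0.06, edgeR adjusted p = 5.0e-33). Tpi1 averaged 132.4 ± 37.5 CPM in cycling and 62.9 ± 6.3 CPM in non-cycling cells (log2 fold change 1.10, edgeR adjusted p = 8.5e-18), higher in 6 of 7 mice, with Control replicate 2 at 60.18 CPM in cycling and 65.32 CPM in non-cycling cells. Pgk1 averaged 195.6 ± 27.6 CPM in cycling and 113.9 ± 14.2 CPM in non-cycling cells (log2 fold change 0.78), and Ldha 381.7 ± 60.2 CPM in cycling and 233 ± 26.2 CPM in non-cycling cells (0.71). Pkm averaged 337.6 ± 55.3 CPM in cycling and 210.5 ± 20.2 CPM in non-cycling cells (0.69), and these 3 genes were higher in cycling cells in 7 of 7 mice.

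Aldoa went the other way. It had 187, 106.3, 180.8 and 162.6 CPM in cycling cells of BG mice and 148.7, 118 and 113.8 CPM in those of Control mice, against 261.4, 228.1, 260.1 and 249 CPM in non-cycling cells of BG mice and 254.8, 220.1 and 214.4 CPM in those of Control mice. Aldoa fell in cycling cells by 0.69 on the log2 scale (SE 0.08, edgeR adjusted p = 6.0e-12), lower in 7 of 7 mice. With cells of over 2500 genes kept, the Aldoa difference was −0.21 and missed the fold limit. Eno1 was higher in 7 of 7 mice by 0.35 on the log2 scale, under the fold limit, and Hif1a (0.16), Hk2 (0.73) and Slc2a1 (−0.44) did not pass adjustment.

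**Figure D5:**
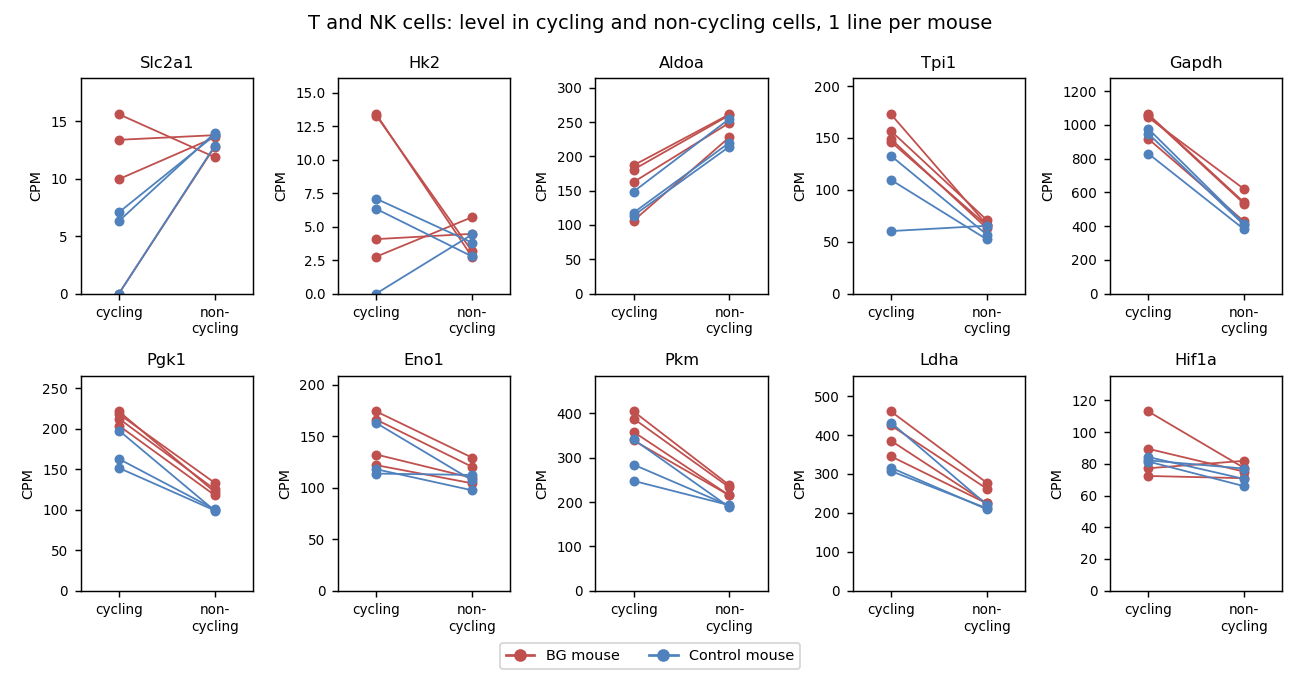
CPM of each member in cycling (left) and non-cycling (right) T and NK cells, 1 line per mouse, BG in red and Control in blue (7 mice). Gapdh averaged 977 CPM in cycling and 474.5 CPM in non-cycling cells, and Aldoa 145.3 CPM in cycling and 241.1 CPM in non-cycling cells.

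Cycling cells were deeper, with a median of 5272 to 6013 UMIs in BG and 4477 to 5571 in Control mice. With each cell thinned to 1500 UMIs, the log2 fold changes were 0.94 for Gapdh, 0.99 for Tpi1, 0.57 for Pkm, 0.53 for Ldha, 0.50 for Pgk1 and −0.72 for Aldoa, and Eno1 no longer passed (0.18, edgeR adjusted p = 0.47). In BG mice only and in Control mice only, chosen after seeing the data, Gapdh differed by 0.97 in BG and 1.19 in Control mice, Tpi1 by 1.24 in BG and 0.71 in Control mice, and Aldoa by −0.61 in BG and −0.85 in Control mice. Among the other lists, Tkt was higher in cycling cells by 0.83 (220 CPM, against 122 CPM in non-cycling cells), while Slc2a3 and Pfkfb3, a second glucose transporter and a regulator of phosphofructokinase, were lower by 0.64 and 1.24. Of 25 Akt, mTOR and HIF pathway genes, 1 was higher and 6 lower, Myc among them, where 12.8% and 12.2% of all genes were called, and the list's median was −0.30 beside −0.08 over all genes. Of 13 HIF-1 targets outside glycolysis, 1 was higher (Anln) and 3 were lower (Bnip3l, Pdk1 and P4ha1), with a median of −0.13.

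Within non-cycling T and NK cells Pgk1 was higher in BG mice, at 119.7 ± 6.5 CPM against 95.2 ± 1.4 CPM in Control mice (SD, 4 BG and 3 Control mice; log2 fold change 0.33, edgeR adjusted p = 0.0498). Gapdh had 508.9 ± 77 CPM in BG and 383.3 ± 18.4 CPM in Control non-cycling cells (0.41, edgeR adjusted p = 0.093). Of 11317 genes, 1.33% were higher and 0.194% lower at that threshold. Within cycling cells no member of 8 tested passed with edgeR, and few genes did, 0.276% of 3988 being higher and 0.125% lower. At an unadjusted p under 0.05 there were 318 genes and 1 member, Tpi1, with a log2 fold change of 0.64 (edgeR adjusted p = 0.38), and Gapdh had one of 0.09.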

How the data were processed

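Each library was a 10x Genomics 3' (v3.1) library of 1 mouse. The authors aligned reads to mm10 with Cell Ranger (version 6.1.2 in the matrix headers), introns included, and deposited unnormalized UMI counts per gene and barcode. The annotation release is not given in the sources used here. No deposited value column was left unused (0 columns). Reads shared with near-identical copies (pseudogenes of Gapdh, or Eno1b, Pgk2 and Aldoart1) could be split or lost, so these members' levels are uncertain to that extent.

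Cells with 200 to 2500 genes and at most 30% mitochondrial UMIs were kept. Classes were gated on UMIs of marker genes, for example 4 of 10 for KCs, 5 of 10 for BMDMs and 4 of 13 for T cells, with cut-offs set after the markers' counts were seen with both groups pooled. The 5335 cells that met gates of more than 1 lineage were left out as possible doublets, among them 511 that met the KC and T cell gates. No doublet caller was run. Cycling cells had UMIs of at least 3 of 9 cycle markers and non-cycling cells of at most 1.

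Counts were summed per mouse and class (at least 10 cells a mouse, 3 mice a group) and tested with edgeR 4.0.16 in R 4.3.3: filterByExpr, TMM, quasi-likelihood F test, Benjamini-Hochberg adjustment over all genes tested in the class. Calls needed an adjusted p under 0.05 and a log2 fold change beyond 0.5 in either direction, the study's pseudobulk limits. SE is the log2 fold change over the root of F. CPM (counts per 1e6) were TMM-scaled over all UMIs of the class. P-values of BG against Control in 1 class measure the spread between mice, with edgeR dispersions estimated across genes. Cycling and class contrasts had the mouse as a block. Their p-values measure how far the difference within a mouse varied from mouse to mouse, again with dispersions estimated across genes. Orders of classes and shares of cells were tested by exact permutation over mice, two-sided (scipy 1.17.1). DESeq2 1.42.0, other size factors, low-count filters, cell limits, gates and leaving out each mouse were alternatives. The fits were tested on simulated data.

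All 10 members are named. From the pathway lists, genes called in a class are named, up to 8 by smallest adjusted p. Likeness was Pearson correlation with the members' mean standardized profile (5 genes) or with Hif1a (3 genes). The members and lists were chosen with earlier results of these data known. Promoters came from RefSeq tables of GRCm38.p6, in which all 10 members matched by symbol.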

Additional observations from a re-analysis of the deposited data

Results flagged for a closer look

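In 17 of 228 sets of 4 mice (a member in a class and group), 1 mouse lay apart from the other 3, by a gap that took up nearly the whole range of the set (Dixon's test, 95% limit). About 1 in 20 sets would be marked so by chance. In NKT-like cells BG replicate 7 had Pgk1 at 160.3 CPM (other BG mice 134.6 to 137) and Hk2 at 1.91 CPM (2.40 to 2.45). In γδ T cells Control replicate 2 had Gapdh at 530.3 CPM (other Control mice 406 to 416), and Control replicate 3 had Tpi1 at 89.1 CPM (54.0 to 54.7). In all T cells Control replicate 2 had Ldha at 222.4 CPM (207.4 to 208.2).

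In KCs Control replicate 3 had Aldoa at 156.9 CPM (196.6 to 200.1). In BMDMs Control replicate 1 had Hk2 at 186.4 CPM (93.6 to 109.1) and BG replicate 7 had Pkm at 358.9 CPM (404.1 to 411.7). BG replicate 6 was apart for Aldoa in NK cells and ILC1 at 178.2 CPM (209.6 to 214.3), Eno1 in CD8 T cells at 66.8 CPM (89.7 to 94.0), Pgk1 in cDC1 at 159.6 CPM (107.6 to 112.6) and Pgk1 in all kept cells at 107.1 CPM (113.1 to 114.2). In B cells BG replicate 8 had Eno1 at 70.3 CPM (57.1 to 59.2) and Control replicate 2 had Ldha at 102.4 CPM (71.7 to 76.1). Control replicate 1 had Eno1 at 131.1 CPM in CD4 T cells (98.6 to 101.1) and Pkm at 145.1 CPM in endothelial cells (216.0 to 223.7). In bile duct cells BG replicate 7 had Ldha at 44.1 CPM (120.9 to 131.5). The cause of these values was not tested.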

How the results depend on the processing

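Of 1910 values of single members under an alternative, 1837 kept their side of an adjusted p of 0.05, with no limit on the fold. By that rule 57 fell out and 16 came in. Of members past it in the main fit, 0 reversed direction. Members not past it could change sign, as Aldoa in NKT-like cells did (log2 fold change −0.05 to 0.06 over fits without 1 mouse). Of counts of members called, 958 stayed within 1.5 times and 61 did not. In NKT-like cells 1 member was called higher. The count was 2 with no low-count filter, with no upper gene limit or with a 10% mitochondrial limit, and 0 with mitochondrial genes left out, with stricter gates or without cycling cells, where 2 in place of 4 passed the adjusted p alone. In T cells the 10% limit gave 2 calls in place of 0, and 2 in place of 4 by adjusted p alone, as did leaving out cycling cells. In NK cells and ILC1 the missing gene limit gave 1 call and 2 by adjusted p alone, in place of 0. In γδ T cells the call was lost (0 in place of 1, also by adjusted p alone) with DESeq2, no upper gene limit, the 10% limit or stricter gates. In all kept cells 1 in place of 2 passed with no low-count filter, without mitochondrial genes, with the 10% limit or without cycling cells. With no upper gene limit 0 in place of 1 member was lower in cycling cells. Leaving out each mouse in turn gave 0 to 2 calls higher and 2 to 5 by adjusted p in NKT-like cells, 0 to 1 and 2 to 5 in T cells, and 0 to 1 for both in γδ T cells. It gave 0 to 2 by adjusted p in all kept cells, 0 to 1 in NK cells and ILC1, and 1 to 2 members lower in cycling cells. The cause of these changes was not tested, beyond the smaller number of mice. Few UMIs left 7 members untested in neutrophils, 5 in cDC1 and 4 each in KCs and bile duct cells. No paired analysis was possible because the labels number Control mice 1 to 4 and BG mice 5 to 8, so no number is shared.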

Other observations

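The members' profiles were compared over the 13 classes and both groups (26 points, which share libraries). Of 45 pairs of members 34 had a Pearson r above 0, with a median of 0.29, a highest value of 0.76 for Pkm and Pgk1 and a lowest of −0.25 for Tpi1 and Hif1a. Hif1a had r of −0.25 to 0.10 with the other 9. Among 6741 genes with at least 50 CPM in a class, the profiles most like the members' mean were those of Ltb4r1 (0.94), a leukotriene B4 receptor, Glrx (0.88), a glutaredoxin, Slc16a3 (0.87), which exports lactate, Osm (0.85) and Nfil3 (0.85). Those most like Hif1a were Rexo2 (0.74), Insig1 (0.72) and Irf2bp2 (0.72). These correlations across classes are a description, and classes differ in depth.

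The share of cycling cells was 1.85%, 4.79% and 6.36% (lowest, median and highest) of T cells in BG and 0.291%, 1.16% and 1.79% in Control mice, and 1.52%, 5.93% and 6.25% of NK cells and ILC1 in BG and 0%, 0.717% and 1.16% in Control mice. The groups did not overlap in either class (exact permutation test, two-sided p = 0.0286, the smallest that 4 against 4 mice allow; adjusted p = 0.0514), which misses the adjusted threshold. In KCs the gate took 0%, 7.84% and 20.7% of BG and 0%, 0% and 3.64% of Control cells (exact permutation test, p = 0.143). In BMDMs it took 2.17%, 2.63% and 3.23% of BG and 0% of the cells of every Control mouse (0 of 193 cells, which allows a share of up to 1.55%, counting error only; exact permutation test, p = 0.0286, adjusted p = 0.0514). Stmn1, a gene of that cycle list, was called higher in KCs at 157.7 CPM in BG and 40.9 CPM in Control mice (log2 fold change 1.89, edgeR adjusted p = 0.030).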
